A study of Mus musculus with 7 samples.

Results

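The ligands described here are 10 secreted proteins of the transforming growth factor beta (TGF-beta) superfamily, measured as RNA in mouse tumors of 2 kinds. They are Tgfb1, Tgfb2 and Tgfb3, the activin chain genes Inhba and Inhbb, the bone morphogenetic protein (BMP) genes Bmp2, Bmp4 and Bmp7, and the growth and differentiation factors Gdf15 and Mstn (myostatin). They were chosen by their symbols in the GENCODE M21 mouse annotation, without regard to how they were expressed, and all 10 were found among the 46603 genes of the count files. The tumors grew in female nude mice, which lack a thymus, injected at the age of 16 weeks with mouse embryonic fibroblasts (MEFs). The labels and methods place the injection under the skin of the right flank and the study's results place it in the mammary pad. NM1 KO cells are MEFs in which nuclear myosin 1, an isoform of the gene Myo1c, was deleted with CRISPR/Cas9. KO+NM1 cells are the same knockout cells carrying NM1 with HA and V5 tags from a lentivirus, selected with Neomycin and tested as single clones. So both groups carry the deletion. By the labels tumors were taken after up to 30 days, and the study's methods and figures give a slightly shorter time. The labels describe a tumor of each kind cut into 4 pieces, of which 3 NM1 KO and 4 KO+NM1 pieces were sequenced, while the study's methods write of tumors. Each p-value therefore measures the spread between pieces, and the tumor, the mouse and the cell line cannot be told apart. In a whole piece, fewer cells of a type and less RNA per cell cannot be told apart either, nor can transcripts of injected and host cells.

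TGF-beta family ligands are made as precursors, cut by proteases of the furin type and secreted as dimers. They bind pairs of type I and type II serine/threonine kinase receptors. TGF-betas, activins and myostatin act mainly through Smad2 and Smad3, and BMPs mainly through Smad1, Smad5 and Smad9. The TGF-betas are secreted in a latent form held by latent TGF-beta binding proteins and released by integrins, and activins, myostatin and BMPs are held back by soluble proteins such as follistatin and noggin. Gdf15 is unusual in that its receptor, Gfral, belongs to another receptor family. In tumors TGF-beta is known both for holding back the growth of epithelial cells and for acting on fibroblasts, vessels and immune cells.

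Of the 10 ligand genes, Inhba and Mstn were higher in the NM1 KO pieces and Tgfb3, Inhbb and Bmp4 were lower. Tgfb1, Tgfb2, Bmp2, Bmp7 and Gdf15 did not pass both thresholds. A gene was called changed where it differed by 2-fold or more and its adjusted p was below 0.05, in edgeR's quasi-likelihood test of NM1 KO minus KO+NM1 over all genes. Values per piece are CPM, counts scaled to the size of the library after TMM normalization. All 10 members passed the filter on low counts, Mstn through its NM1 KO counts alone. The 5 changed members stand beside a background in which 37.3% of 16887 tested genes were changed, 17.1% of them higher and 20.3% lower in the NM1 KO pieces. For 6 members the groups of pieces were fully separated, 2 above and 4 below, where 57.0% of all tested genes did not overlap. The median log2 fold change was -1.05 over the 10 members and 0.0 over all genes tested. With Mstn at its lower bound the member median is the same. Counts of 5 and 6 among 10 are close to the background shares and are no result about the members as a group.

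**Figure D1:**
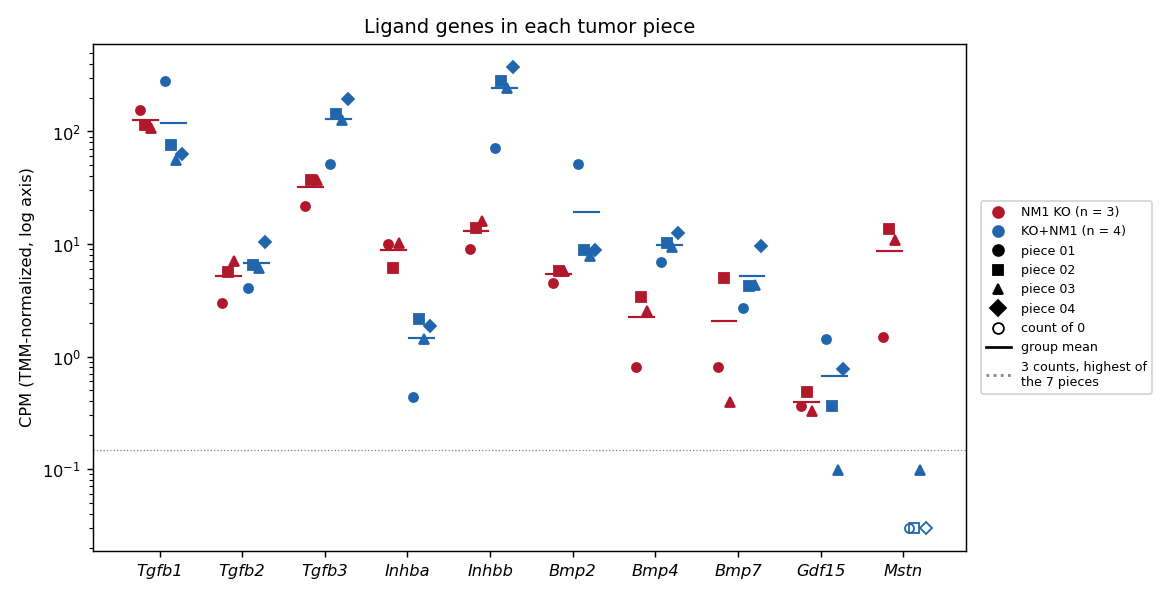
CPM of each ligand gene (log axis) in the 3 NM1 KO pieces (red) and the 4 KO+NM1 pieces (blue), with a bar at the group mean. Open symbols, drawn at the foot of the plot and without a group mean, are counts of 0, and the dotted line is the CPM of 3 counts in the piece where it is highest (0.148). Inhba and Mstn lie higher in every NM1 KO piece, Tgfb3, Inhbb, Bmp2 and Bmp4 lie lower in every one, and KO+NM1 piece 01 is the highest for Tgfb1, Bmp2 and Gdf15.

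Total counts ran from 24088309 to 28326568 per piece, and 3 counts, the limit that a count of 0 allows, were worth 0.0989 to 0.148 CPM (counting error only). The tumors held different tissue markers. Skeletal muscle markers summed to 2310 to 19200 CPM in the NM1 KO pieces and 6.66 to 25.4 CPM in the KO+NM1 pieces, with 10 of 10 higher and Ckm, Myh4, Pvalb and Myoz1 at 3 counts or fewer in every KO+NM1 piece. White adipocyte markers (10 of 10 lower) summed to 215 to 590 CPM against 6430 to 51600 CPM, and brown adipocyte markers (4 of 6 lower) to 8.39 to 35.2 CPM against 412 to 3630 CPM. Endothelial markers (7 of 7 lower) summed to 204 to 233 CPM against 1040 to 1430 CPM, mammary epithelium markers (5 of 7 tested lower) to 3.86 to 68.1 CPM against 452 to 1940 CPM, and erythroid markers (3 of 3 tested lower) to 17.8 to 28.0 CPM against 200 to 763 CPM. Macrophage markers (7 of 8 higher) summed to 2640 to 3030 CPM against 544 to 2400 CPM, and the 6 proliferation genes (6 higher) to 1610 to 2160 CPM against 22.9 to 103 CPM. Fibroblast markers, of the cell type injected, were present in every piece at 4020 to 7740 CPM and 2380 to 11800 CPM, with 4 of 7 lower. Keratinocyte markers (1 of 4 tested higher) summed to 3.86 to 1220 CPM and 56.1 to 419 CPM, and the milk gene Wap and the keratinocyte gene Flg were at 3 counts or fewer in all 7 pieces. KO+NM1 piece 01 stood apart with 3560 CPM of B cell markers (0 of 5 changed), against 3.08 to 14.4 CPM in the 3 others of its group and 8.89 to 38.3 CPM in the NM1 KO pieces. Its higher macrophage sum rests mostly on Lyz2, a marker left out here after its values were seen. The other 7 markers summed to 506 CPM in piece 01 and 348 to 484 CPM in pieces 02 to 04. In the NM1 KO pieces they summed to 1760 to 2010 CPM. Member results, and counts of pathway genes, that rest on this piece are given with and without it. Without it, 5 of 10 members were again changed, with 2 higher and 3 lower, beside 46.8% of 16617 tested genes, 21.7% of them higher and 25.1% lower, which is near the members' share. Myo1c had a mean of 302 ± 12.1 CPM (SD, n = 3) in the NM1 KO tumor against 408 ± 23.0 CPM (SD, n = 4) in the KO+NM1 tumor (adjusted p = 0.0311, under 0.05 in 10 of 17 alternatives), and counts per gene do not separate the deleted isoform from the others.

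Tgfb1 (chr7:25687002-25705077, plus strand, build GRCm38) encodes the most widely made TGF-beta. Its level was 155, 114 and 108 CPM in NM1 KO pieces 01, 02 and 03, and 283, 75.5, 55.9 and 62.5 CPM in the KO+NM1 pieces, from 01 to 04. The NM1 KO pieces lay above 3 of the KO+NM1 pieces and below piece 01, so the groups overlapped. The fitted log2 fold change was 0.08 (standard error 0.60, 95% interval -1.34 to 1.50, adjusted p = 0.926), and its sign turned in 8 of 17 alternative settings. Without KO+NM1 piece 01 it was 0.83 (adjusted p = 0.00347, range over the alternatives 0.00347 to 1.0), still under 2-fold. Leaving out that 1 piece thus changed whether the adjusted p passed. B cell markers set the same piece apart, at 3560 CPM against 3.08 to 38.3 CPM in the other 6 pieces. Macrophage markers without Lyz2 summed to 506 CPM there and to 348 to 484 CPM in the other 3 of its group. In the NM1 KO pieces that sum was 1760 to 2010 CPM. Within the KO+NM1 group, Cd68, Csf1r, C1qa, Itgam and Fcgr1 were highest in piece 01, and Adgre1 and Mrc1 were lowest there. These markers were named after their values were seen. The part of either list in the Tgfb1 level was not tested.

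Tgfb2 (chr1:186622792-186705989, minus strand), a ligand that needs the co-receptor encoded by Tgfbr3 for strong binding, was low in both tumors. It was measured at 3.00, 5.59 and 7.09 CPM in the NM1 KO pieces and 4.08, 6.54, 6.12 and 10.4 CPM in the KO+NM1 pieces. The groups overlapped, with a log2 fold change of -0.38 (95% interval -1.36 to 0.61, adjusted p = 0.487). A change of 2-fold is inside that interval.

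Tgfb3 (chr12:86056745-86079041, minus strand), best known for its part in palate closure and wound repair, was lower in the NM1 KO tumor. It reached 21.9, 36.9 and 36.7 CPM in the NM1 KO pieces and 51.8, 143, 126 and 195 CPM in the KO+NM1 pieces. The groups did not overlap, the NM1 KO pieces being lower, and KO+NM1 piece 01 was the lowest of its group. Tgfb3 fell by 2.02 on the log2 scale (standard error 0.43, adjusted p = 0.00944), with an adjusted p of at most 0.0499 in the 17 alternatives. The group means were 31.8 ± 8.60 CPM (SD, n = 3) and 129 ± 59.2 CPM (SD, n = 4), a ratio of 4.05.

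The makeup of the TGF-betas differed between pieces, taken as shares of their summed CPM per kb of exon. Tgfb1 made up 81.5%, 65.6% and 64.1% of the sum in the NM1 KO pieces and 77.8%, 25.7%, 22.4% and 17.3% in the KO+NM1 pieces. Tgfb3 made up 17.2%, 31.6% and 32.3%, and 21.2%, 72.4%, 75.4% and 80.2%. Tgfb1 was the main isoform in all NM1 KO pieces and in KO+NM1 piece 01, and Tgfb3 in the other 3 KO+NM1 pieces. Tgfb2 stayed between 0.978% and 3.65%. The summed level of the 3 genes was 37.7, 34.5 and 33.6 CPM per kb in the NM1 KO pieces and 72.0, 58.3, 49.4 and 71.8 CPM per kb in the KO+NM1 pieces, without overlap. These shares and sums are a description with no test, and exons of Tgfb2 and Tgfb3 overlap the annotated genes Gm29491 and Gm37804, counted at 3 reads at most, so reads shared with these may be missing.

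The activin chains went in opposite directions. Inhba (chr13:16011851-16031621, plus strand) encodes the beta A chain, whose dimer is activin A. It was at 9.92, 6.07 and 10.3 CPM in the NM1 KO pieces and 0.437, 2.15, 1.43 and 1.85 CPM in the KO+NM1 pieces. Every NM1 KO piece was above every KO+NM1 piece. Inhba rose by 2.58 on the log2 scale (standard error 0.52, adjusted p = 0.00643), and its adjusted p was at most 0.047 in the 17 alternatives.

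Inhbb (chr1:119415465-119422248, minus strand) encodes the beta B chain, whose dimer is activin B, and its RNA is known to be abundant in fat cells. It was at 9.09, 13.8 and 15.9 CPM in the NM1 KO pieces and 70.6, 279, 241 and 374 CPM in the KO+NM1 pieces. The groups lay far apart, at means of 12.9 ± 3.49 CPM (SD, n = 3) and 241 ± 127 CPM (SD, n = 4), a ratio of 18.6. Inhbb fell by 4.22 on the log2 scale (standard error 0.51, adjusted p = 0.0017), the lowest log2 fold change among the 10 members. White adipocyte markers moved with it, at 215, 590 and 509 CPM in the NM1 KO pieces and 6430, 51600, 47900 and 36400 CPM in the KO+NM1 pieces. Per 1000 CPM of these markers, Inhbb was at 42.4, 23.5 and 31.2 CPM in the NM1 KO pieces and 11.0, 5.41, 5.02 and 10.3 CPM in the KO+NM1 pieces, so the markers differed more than Inhbb did. Most of the marker sum in the NM1 KO pieces was Car3, which muscle also makes, and without it (chosen after its values were seen) the sums were 47.5 to 203 CPM and 4340 to 32700 CPM. Mammary epithelium markers, named after their values were seen, were at 3.86, 68.1 and 46.4 CPM and at 452, 1660, 1400 and 1940 CPM. Among the KO+NM1 pieces their order was that of Inhbb, and the order of the white adipocyte markers was not. Among the NM1 KO pieces neither list had the order of Inhbb. Brown adipocyte, endothelial and erythroid markers also summed lower in the NM1 KO pieces, as given above. The part of any of these lists in the Inhbb result was not tested.

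By CPM per kb of exon, Inhba made up 42.1%, 22.6% and 30.1% of the summed chains in the NM1 KO pieces and 0.411%, 0.512%, 0.394% and 0.327% in the KO+NM1 pieces. By this measure Inhbb was the main chain in all 7 pieces. With coding length in place of exon length, Inhba held 51.4% and Inhbb 48.6% in NM1 KO piece 01. The sum was 3.69, 4.20 and 5.34 CPM per kb in the NM1 KO pieces and 16.7, 65.8, 56.8 and 88.3 CPM per kb in the KO+NM1 pieces. The larger share of Inhba in the NM1 KO tumor thus went with a lower sum of both chains.

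**Figure D2:**
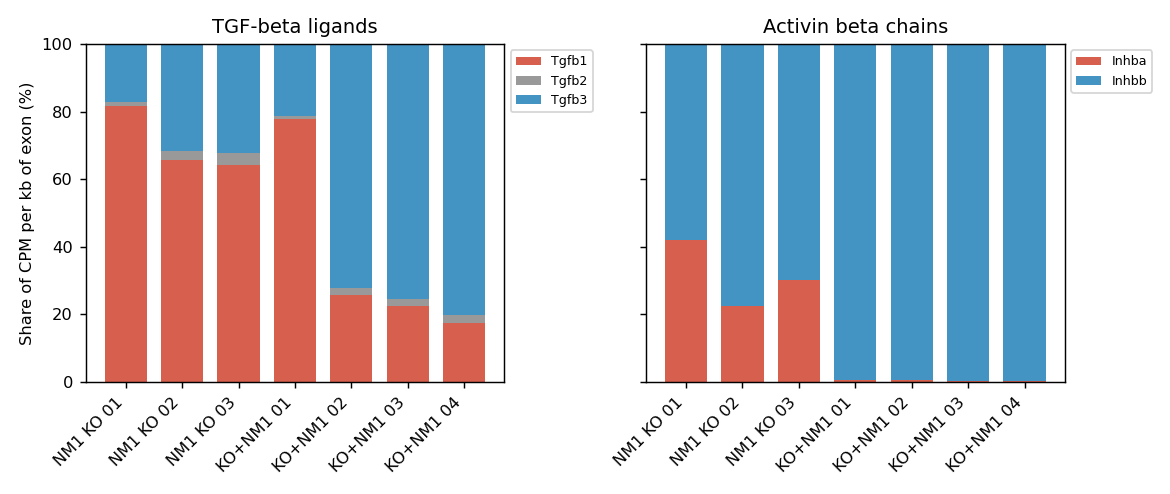
Share (%) of each gene in the summed CPM per kb of exon of the TGF-betas (left) and of the activin beta chains (right), 1 bar per piece. Tgfb1 holds 64.1% to 81.5% in the NM1 KO pieces and 77.8% in KO+NM1 piece 01, against 17.3% to 25.7% in KO+NM1 pieces 02, 03 and 04, and Inhba holds 22.6% to 42.1% in the NM1 KO pieces and at most 0.512% in the KO+NM1 pieces.

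Bmp2 (chr2:133552159-133562885, plus strand), an inducer of bone and cartilage, was at 4.53, 5.76 and 5.80 CPM in the NM1 KO pieces and 51.0, 8.81, 7.89 and 8.83 CPM in the KO+NM1 pieces. The NM1 KO pieces were all lower than the KO+NM1 pieces, of which piece 01 stood far above the other 3. The log2 fold change was -1.84 (standard error 0.73, adjusted p = 0.0851) and did not pass. Without KO+NM1 piece 01 it was -0.79 with an adjusted p of 0.00675 (range over the alternatives 0.00675 to 0.271). That difference is under 2-fold. B cell markers were at 3560 CPM in KO+NM1 piece 01 and at 3.08 to 38.3 CPM in the other 6 pieces, and their part in the Bmp2 level was not tested.

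Bmp4 (chr14:46383520-46390669, minus strand), a BMP of mesenchyme known to commit precursor cells to fat, was at 0.799, 3.40 and 2.54 CPM in the NM1 KO pieces and 6.85, 10.2, 9.47 and 12.6 CPM in the KO+NM1 pieces. The groups did not overlap, and piece 01 was the lowest of each group. Bmp4 fell by 2.12 on the log2 scale (standard error 0.48, adjusted p = 0.0126). It missed the threshold in 1 of 17 alternatives, glmTreat of edgeR, which tests for a change beyond 2-fold ( adjusted p = 0.0596, where the alternatives ranged from 4.4e-05 to 0.0596). Its exons overlap Gm15217 on the opposite strand, which had 1 count at most in any piece.

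Bmp7 (chr2:172868012-172940321, minus strand), a BMP of kidney and epithelium, was uneven among the NM1 KO pieces. It was at 0.799, 4.96 and 0.396 CPM there and at 2.70, 4.27, 4.29 and 9.56 CPM in the KO+NM1 pieces. NM1 KO piece 02 alone overlapped the other group. The log2 fold change was -1.34 (95% interval -3.40 to 0.72, adjusted p = 0.254), and without NM1 KO piece 02 it was -3.23 (adjusted p = 0.0166, range over the alternatives 0.0166 to 0.61). Keratinocyte markers were at 1220 CPM in NM1 KO piece 02 and at 25.9 and 3.86 CPM in pieces 01 and 03. In the KO+NM1 pieces they were at 56.1, 228, 145 and 419 CPM. Per 1000 CPM of these markers, Bmp7 was at 30.9, 4.08 and 103 CPM in the NM1 KO pieces. That value was 48.1, 18.7, 29.5 and 22.8 CPM in the KO+NM1 pieces, so Bmp7 was not proportional to the markers. Their part in the Bmp7 level was not tested.

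Gdf15 (chr8:70629393-70632456, minus strand), a stress-induced hormone that lowers food intake, was barely counted. The counts were 11, 14 and 10 in the NM1 KO pieces and 39, 9, 2 and 19 in the KO+NM1 pieces, or 0.366, 0.486 and 0.330 CPM against 1.42, 0.366, 0.0987 and 0.780 CPM. The groups overlapped, and KO+NM1 piece 03 was under the limit of 3 counts. The log2 fold change was -0.77 (95% interval -2.58 to 1.04, adjusted p = 0.436). A difference was not detectable at these counts. Its receptor Gfral had 1 count at most in any piece.

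Mstn (chr1:53061640-53068079, plus strand) encodes myostatin, which is made by skeletal muscle and limits its mass. Its counts were 45, 390 and 328 in the NM1 KO pieces and 0, 0, 2 and 0 in the KO+NM1 pieces. In CPM this was 1.50, 13.5 and 10.8 in the NM1 KO pieces, all KO+NM1 pieces being under 3 counts. Against that floor, set per library, the mean of the NM1 KO pieces was at least 68.6-fold higher (adjusted p = 0.00195). Skeletal muscle markers followed the same order, at 2310, 19200 and 15200 CPM in the NM1 KO pieces and 12.8, 25.4, 6.66 and 19.5 CPM in the KO+NM1 pieces. Per 1000 CPM of muscle markers, Mstn was at 0.65, 0.704 and 0.712 CPM in NM1 KO pieces 01 to 03, so its differences between these pieces were about those of the markers. The part of muscle tissue in the result was not tested.

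**Figure D3:**
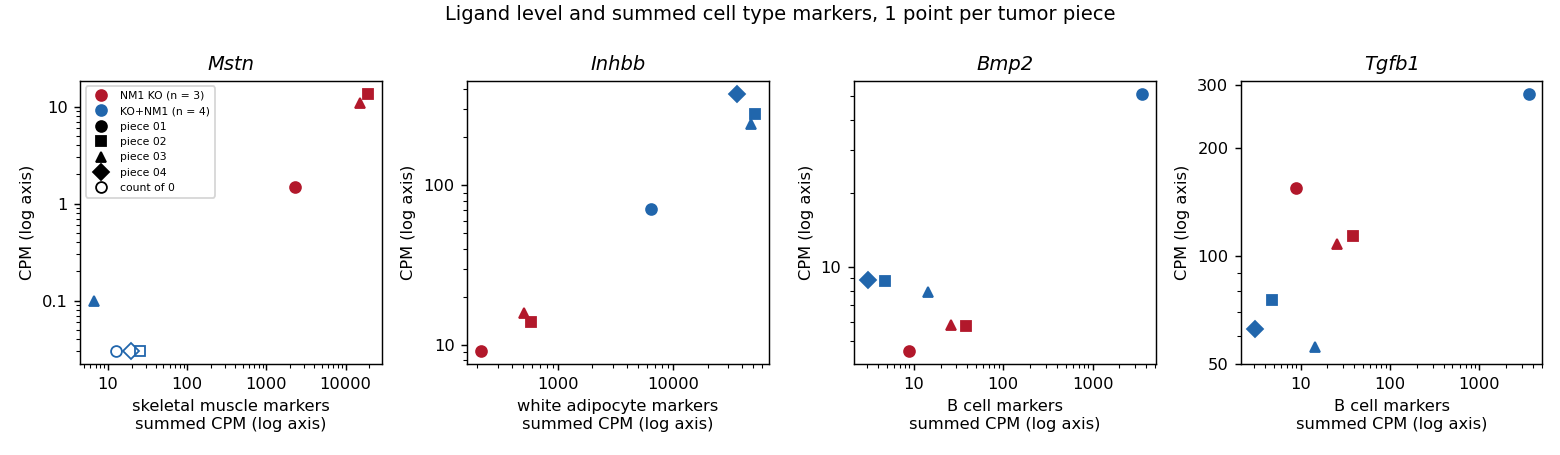
CPM of 4 ligand genes against the summed CPM of a marker list, both on log axes, 1 point per piece (red NM1 KO, blue KO+NM1, open symbols for counts of 0 drawn at the foot). Mstn and muscle markers are both high in the NM1 KO pieces, Inhbb and white adipocyte markers in the KO+NM1 pieces, and KO+NM1 piece 01 lies apart for Bmp2 and Tgfb1 and for B cell markers (3560 CPM).

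**Figure D4:**
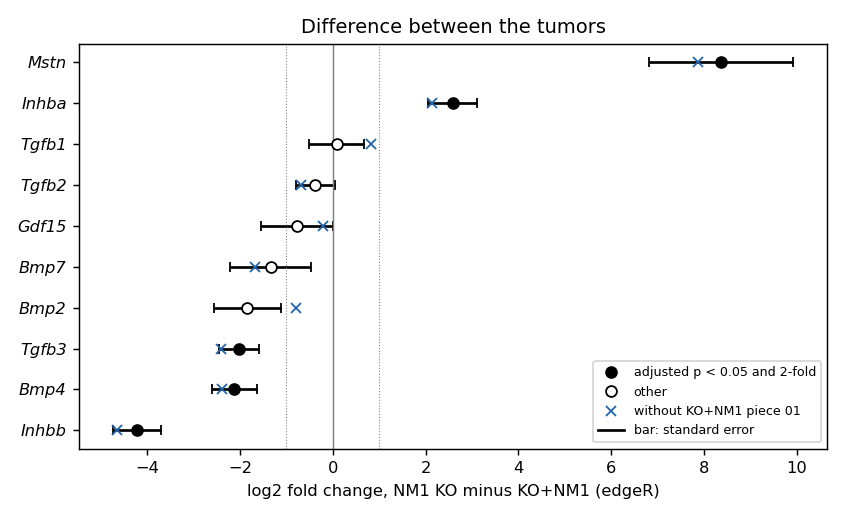
Log2 fold change of each ligand gene, NM1 KO minus KO+NM1, with its standard error from edgeR, and the same without KO+NM1 piece 01 (crosses, no error shown). Filled points are the 5 changed genes, from Inhbb (-4.22) to Mstn (8.37, a fitted value that depends on the prior count), and the crosses of Tgfb1 (0.83) and Bmp2 (-0.79) lie farthest from their points relative to the error.

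Upstream sequences were taken for the changed members that have an entry in the RefSeq promoter table (build GRCm38.p6), which held 7 of the 10 members. They show how differently the genes that moved are built at their starts, from a TATA box gene of muscle to a GC-rich start. Each run is the 250 bases before the start site, read 5′ to 3′ on the strand of the gene, with 3 kinds of match on either strand in capitals: CANNTG (the E-box, bound by basic helix-loop-helix factors such as MyoD), TATAAA (the core of a TATA box) and CAGAC (a Smad half-site).
Mstn, chr1:53061390-53061639, plus strand: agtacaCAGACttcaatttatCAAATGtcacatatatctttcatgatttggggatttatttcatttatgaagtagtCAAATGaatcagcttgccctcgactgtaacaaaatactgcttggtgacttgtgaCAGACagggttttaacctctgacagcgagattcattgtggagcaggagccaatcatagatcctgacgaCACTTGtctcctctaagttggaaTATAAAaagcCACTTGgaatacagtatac
Inhba, chr13:16011601-16011850, plus strand: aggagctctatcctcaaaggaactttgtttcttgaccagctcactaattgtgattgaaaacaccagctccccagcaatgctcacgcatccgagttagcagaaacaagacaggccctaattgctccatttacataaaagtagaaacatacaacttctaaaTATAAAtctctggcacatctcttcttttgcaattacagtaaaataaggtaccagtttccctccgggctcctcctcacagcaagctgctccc
Inhbb, chr1:119422249-119422498, minus strand: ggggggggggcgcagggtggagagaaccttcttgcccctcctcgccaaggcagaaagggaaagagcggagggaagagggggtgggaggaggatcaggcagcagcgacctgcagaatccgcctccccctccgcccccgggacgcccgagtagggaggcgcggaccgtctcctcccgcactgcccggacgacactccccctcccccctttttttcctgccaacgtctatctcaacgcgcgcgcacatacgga
Bmp4, chr14:46390670-46390919, minus strand: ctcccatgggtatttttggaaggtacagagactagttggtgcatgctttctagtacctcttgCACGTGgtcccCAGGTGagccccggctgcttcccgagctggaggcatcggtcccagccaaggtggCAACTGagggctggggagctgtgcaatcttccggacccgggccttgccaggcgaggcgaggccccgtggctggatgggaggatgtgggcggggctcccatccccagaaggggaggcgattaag
The Mstn run held 4 E-boxes, 2 Smad half-sites and 1 TATAAA that begins 29 bases before the start, and its GC content was 38.4%. Inhba had 1 TATAAA that begins 91 bases before the start and neither of the others, at 43.2% GC. Inhbb held none of the 3 motifs at 68.0% GC, and Bmp4 held 3 E-boxes and no other at 63.2% GC. Among all 32851 promoters of the table, 66.2% held an E-box, 12.4% TATAAA and 42.2% a Smad half-site in the same 250 bases. The matches do not overlap each other in these runs, and a match is a run of letters, not a site shown to be used.

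Between genes, levels were compared as mean CPM per kb of exon within each tumor. In the NM1 KO tumor the order was Tgfb1 (24.9), Tgfb3 (9.40), Mstn (3.19), Inhbb (3.04), Bmp2 (1.51), Inhba (1.37), Bmp4 (0.999), Tgfb2 (0.902), Bmp7 (0.511) and Gdf15 (0.213). Pieces of neighbours in that order did not overlap for Tgfb1 and Tgfb3, Tgfb3 and Mstn, and Inhbb and Bmp2, and the other neighbours overlapped. In the KO+NM1 tumor Inhbb led (56.7), before Tgfb3 (38.1), Tgfb1 (23.6), Bmp2 (5.38), Bmp4 (4.35), Bmp7 (1.29), Tgfb2 (1.17), Gdf15 (0.36), Inhba (0.23) and Mstn (0.00912). There the neighbours did not overlap for Bmp4 and Bmp7 and for Inhba and Mstn alone. Without KO+NM1 piece 01 the means of that tumor were 12.8 for Tgfb1, 2.39 for Bmp2 and 0.224 for Gdf15, so that Bmp4 (4.78) came before Bmp2 and Inhba (0.283) before Gdf15, and the other ranks stayed. Inhbb led with or without that piece, and Tgfb1 led in the NM1 KO tumor. Some ranks depended on the length used. Per kb of coding length in the NM1 KO tumor, Inhbb (10.5) came before Mstn (7.64), Inhba (6.89) before Bmp2 (4.54) and Tgfb2 (3.94) before Bmp4 (1.84). In the KO+NM1 tumor Tgfb2 (5.11) then came before Bmp7 (4.03) and Inhba (1.15) before Gdf15 (0.733). The leading gene of each tumor stayed the same.

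The genes with the profile closest to each ligand were found over the 7 pieces by the root mean square (RMS) difference of centred log2 CPM, among 13724 protein-coding genes. Bmp2 had the closest, Pxk (0.09), Arhgef1 (0.12) and Irf4 (0.15), of which Irf4 is a transcription factor of lymphocytes. Tgfb1 was nearest to Tut4 (0.14), Amz1 (0.16) and Ppp1r18 (0.17), Tgfb3 to Kif5a (0.14) and Gprin3 (0.15), and Tgfb2 to Ptpn13 (0.18), Zc2hc1c (0.19) and Arhgap8 (0.19). Inhbb was nearest to Enpep (0.14), Lrrn2 (0.14) and Vill (0.15). Inhba was nearest to Amot (0.20), Fstl3 (0.23) and Frk (0.27), where Fstl3 encodes a secreted protein that binds activin and myostatin. Bmp4 was nearest to Sh2d4a (0.15), Pnck (0.23) and Dbp (0.24), and Bmp7 to Elovl7 (0.33), Ephb6 (0.39) and AI661453 (0.39). Mstn had the muscle genes Asb11 (0.41) and Trim72 (0.42) and Lrrc2 (0.42), and Gdf15 had Kif19a (0.33), Ndnf (0.38) and Ezr (0.40). Among the members themselves Tgfb3 and Bmp4 were the closest pair (0.49), and Inhba and Inhbb differed by 3.33. All profiles share the same 7 libraries and the difference between the tumors.

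The rest of the pathway was read from lists chosen by role, in the same fit. No list was tested as a set. The background was 37.3% of all tested genes changed, 17.1% higher and 20.3% lower, and 46.8% changed without KO+NM1 piece 01. Leaving that piece out gave 8 changed other ligands (4 higher), 5 receptors (0 higher) and 7 extracellular antagonists (2 higher). It also gave 7 BMP response genes (0 higher), 7 latency and activation genes (1 higher) and 1 of the Smads and corepressors. Counts below include that piece unless stated. Among 11 tested of 22 other ligands found, 3 were higher and 3 lower (median log2 fold change -0.73). Gdf3 was at 3.00, 2.60 and 4.29 CPM in the NM1 KO pieces and 0.0493 to 0.364 CPM in the KO+NM1 pieces. It rose by 3.69 (standard error 0.54, adjusted p = 0.00195). Gdf3 passed the filter on low counts through its NM1 KO counts alone, with 10, 7, 1 and 7 counts in the KO+NM1 pieces. Gdf6, a BMP of joints, rose by 2.51 (standard error 0.76, adjusted p = 0.0308). Its adjusted p passed in 9 of 16 alternatives (up to 0.11) and in 2 of 7 fits that each left out a piece. Gdf10 was at 1.36, 0.590 and 1.58 CPM against 29.8 to 155 CPM, and fell by 5.93 (standard error 0.63, adjusted p = 0.00133). Bmp3, a BMP without bone-inducing action, fell by 5.73 (standard error 0.74, adjusted p = 0.00248). Its counts were 6, 32 and 29 in the NM1 KO pieces and 232, 1252, 974 and 1299 in the KO+NM1 pieces. NM1 KO piece 01 was thus under the filter's minimum count of 10. The other 2 changed genes were Amh, which rose by 2.38 at a mean under 1 CPM and passed in 7 of 16 alternatives, and Bmp6, which fell by 3.97. Both were named after their values were seen. Amh, too, passed the filter through its NM1 KO counts alone, with 13, 3, 1 and 2 counts in the KO+NM1 pieces.

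Of 13 tested receptors, 0 were higher and 4 lower by both thresholds (median log2 fold change -0.16). By the adjusted p alone Tgfbr1, the TGF-beta type I receptor, was also higher at 0.78, which passed in 13 of 17 alternatives. Acvr1c, the type I receptor known as ALK7 and made by fat cells, was at 0, 0.174 and 0.0989 CPM in the NM1 KO pieces. In the KO+NM1 pieces it was at 9.25, 71.7, 83.2 and 63.7 CPM. The fitted log2 fold change of -9.23 depends on the prior count (adjusted p = 0.00123). Acvr1c passed the filter on low counts through its KO+NM1 counts alone, with 0, 5 and 3 counts in the NM1 KO pieces. White adipocyte markers were lower in the same pieces, as given for Inhbb. Tgfbr3 (betaglycan), the co-receptor of Tgfb2, was at 28.2, 26.4 and 28.7 CPM against 69.8, 158, 144 and 188 CPM and fell by 2.34 (standard error 0.31, adjusted p = 0.00171). The other 2, Acvrl1 and Eng, are receptors of vessels, and had log2 fold changes of -1.26 and -1.04. Endothelial markers were lower in the same pieces, at 204 to 233 CPM against 1040 to 1430 CPM, and their part was not tested.

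Among 12 Smads and corepressors, 0 were higher and 1 lower (median log2 fold change 0.20), and 4 and 3 by the adjusted p alone. Smad6, the inhibitory Smad of BMP signalling, was at 1.73, 3.47 and 2.34 CPM in the NM1 KO pieces and 23.3, 39.5, 37.0 and 31.9 CPM in the KO+NM1 pieces, and fell by 3.71 (standard error 0.29, adjusted p = 0.000462). Smad7, the inhibitory Smad that TGF-beta induces, lay just under 2-fold at -0.98 (adjusted p = 0.0144). Leaving out any 1 piece other than KO+NM1 piece 01 gave 2 changed genes.

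Of 13 genes of latency and activation, 2 were higher and 6 lower (median log2 fold change -0.37). Itgav, an integrin chain of the list, was at 163, 123 and 132 CPM in the NM1 KO pieces and 22.0, 35.6, 33.5 and 41.5 CPM in the KO+NM1 pieces. It rose by 2.07 (standard error 0.23, adjusted p = 0.000805). The integrin chain Itgb8 fell by 2.35 (standard error 0.54, adjusted p = 0.0135, passed in 15 of 17 alternatives). Another, Itgb6, did not pass (adjusted p = 0.703). Both were named after their values were seen. Ltbp1, a latent TGF-beta binding protein, rose by 1.10 (standard error 0.31, adjusted p = 0.0212), with an adjusted p that passed in 11 of 17 alternatives (up to 0.431) and in 2 of 7 fits that each left out a piece. Its relatives went the other way: Ltbp2, which is not known to bind TGF-beta, fell by 4.48 (standard error 0.25, adjusted p = 0.000229), and Ltbp4, a partner of Tgfb1 and of elastic fibres, fell by 3.38 (standard error 0.34, adjusted p = 0.000851). Ltbp4 was at 33.5, 47.8 and 42.4 CPM against 219, 517, 394 and 591 CPM. Without NM1 KO piece 01, 5 genes of this list were changed.

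Of 12 extracellular antagonists, 1 was higher and 4 lower (median log2 fold change -1.03). Fstl3 was at 16.7, 12.4 and 12.7 CPM in the NM1 KO pieces and 0.910, 4.06, 2.37 and 3.69 CPM in the KO+NM1 pieces, and rose by 2.34 (standard error 0.48, adjusted p = 0.00701). Inhba and Mstn were also higher and Inhbb, the other activin chain, was lower in the same pieces. Follistatin itself, Fst, was at 20.1, 19.6 and 20.0 CPM against 7.25 to 39.3 CPM and did not pass (adjusted p = 0.623). The BMP-binding proteins Chrdl1 and Bmper were lower: Chrdl1 fell by 3.52 (standard error 0.37, adjusted p = 0.000999) and Bmper fell by 2.63 (standard error 0.64, adjusted p = 0.018, passed in 15 of 17 alternatives). Without NM1 KO piece 01, KO+NM1 piece 02 or KO+NM1 piece 04, 3 of the list were changed in each case.

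Of 8 TGF-beta response genes, 1 was higher and 2 lower (median log2 fold change -0.60), and without KO+NM1 piece 01 2 were higher and 4 lower. Acta2, a contractile gene of smooth muscle and myofibroblasts, fell by 3.76 (standard error 0.31, adjusted p = 0.000528), and Tagln, another, fell by 3.58 (standard error 0.27, adjusted p = 0.000414). Acta2 was at 23.3, 27.1 and 36.4 CPM in the NM1 KO pieces and 217, 486, 389 and 475 CPM in the KO+NM1 pieces, without overlap.

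Of 8 BMP response genes, 0 were higher and 6 lower (median log2 fold change -2.54), beside a background of 20.3% lower. Hey1, a transcription repressor also driven by Notch, was at 2.80, 3.16 and 2.93 CPM in the NM1 KO pieces and 24.1, 61.1, 58.6 and 75.0 CPM in the KO+NM1 pieces, and fell by 4.20 (standard error 0.36, adjusted p = 0.0006). Id4, an inhibitor of helix-loop-helix factors, fell by 2.97 (standard error 0.63, adjusted p = 0.0114). The 2 that did not pass were Id2 at -0.16 (adjusted p = 0.823) and Msx2 at -2.50 (adjusted p = 0.0624). Bmp4 was lower in the same pieces, and so were endothelial markers, at 204 to 233 CPM against 1040 to 1430 CPM, and the part of either was not tested.

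**Figure D5:**
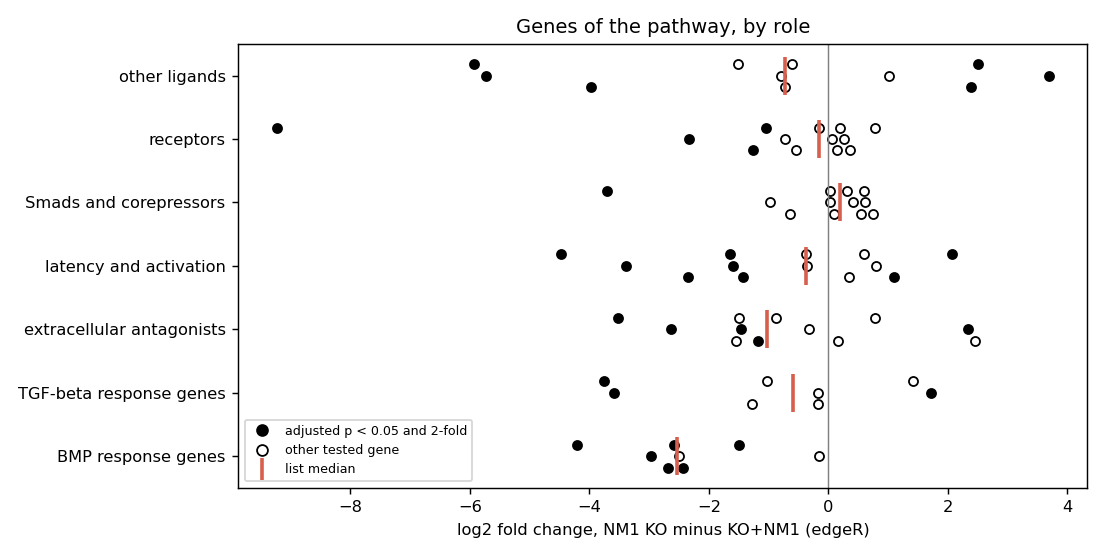
Log2 fold change of each tested gene of the pathway lists, NM1 KO minus KO+NM1, filled where both thresholds were passed, with a red bar at the list median. The BMP response genes have the lowest median (-2.54, 6 of 8 lower and 0 higher), and 1 of 12 Smads and corepressors passed.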

How the data were processed

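RNA of each tumor piece was sequenced as NEBNext Ultra II libraries on a NextSeq instrument. The authors used Trimmomatic 0.36 for trimming, HISAT2 2.0.4 for alignment to GRCm38 and SAMtools 0.1.19 for sorting, and deposited raw HTSeq read counts per Ensembl gene for 7 pieces. The annotation release and the strand option are not given in the sources used here. Symbols were taken from GENCODE M21 (46091 of 46603 genes), and 177 of 178 genes of the lists were found. Total counts were 24088309 to 28326568 per piece, so 3 counts correspond to 0.0989 to 0.148 CPM, counting error only.

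Counts were analysed in R 4.3.3 with edgeR 4.0.16: genes were filtered with filterByExpr (minimum count 10), normalized by TMM and compared with the quasi-likelihood test, and p-values were adjusted by Benjamini-Hochberg over 16887 genes. Levels between genes were divided by the length of merged exons. Profiles were compared as log2 CPM (prior count 2). Named genes were the 10 members, from each pathway list the 2 largest rises and 2 largest falls past both thresholds at a mean of at least 1 CPM with the genes that went against the others where 5 or fewer did, the 3 genes of closest profile for each member, Myo1c, and marker lists that moved with a member. Genes outside this rule are said to be so, apart from Acvrl1, Eng, Smad7, Tgfbr1, Fst and Gfral, which were also named after their values were seen. Some genes that fall under the rule are not reported here. The members, the lists and the rule were chosen with earlier results of these data known. Alternatives were other scalings, other filters, DESeq2 1.42.0, limma 3.58.1 voom, edgeR's glmTreat, the replicate number as a block, coding length and leaving out each piece. Pieces with the same number were compared as possible pairs, and no 2 libraries of a tumor were duplicates.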

Additional observations from a re-analysis of the deposited data

Results flagged for a closer look

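In 14 groups of 4 KO+NM1 values, 5 had a piece far from the rest by Dixon's ratio, the gap to the nearest value divided by the range above Dixon's 95% critical value for 4 samples. Chance alone gives about 1 in 20 for a single group. The 14 groups are not independent, since the shares are made from the same CPM values, so the count of 5 cannot be set against that rate. Tgfb1 CPM had a ratio of 0.914, with KO+NM1 piece 01 the highest at 283 CPM. Bmp2 CPM had a ratio of 0.978, with piece 01 the highest at 51.0 CPM. The Tgfb1 share of the TGF-betas had a ratio of 0.861, with piece 01 the highest at 77.8%, and the Tgfb3 share had a ratio of 0.868, with piece 01 the lowest at 21.2%. Of these 5, 4 are values of the same piece. Mstn CPM had a ratio of 1.0, which is 2 counts in KO+NM1 piece 03 beside 0 in the others and is under the limit of 3 counts. The 3 NM1 KO pieces are too few for this measure.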

How the results depend on the processing

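All 5 changed members kept both calls in 15 of 17 alternative settings: Mstn was not tested with at least 10 counts in every library, and Bmp4 missed with glmTreat. Bmp7 was also called with voom (-2.31) and without NM1 KO piece 02. Leaving out pieces gave 5 to 6 changed members. Tgfb1 had a log2 fold change of -0.0021 with DESeq2's size factors, -0.0019 with DESeq2, -0.06 with upper-quartile normalization, -0.01 with no filter and -0.21 to 0.83 with each piece left out. Gdf15 had 0.09 with voom. With glmTreat 3781 genes were changed in all, 2 receptors, 3 genes of latency and activation and 2 extracellular antagonists. The antagonists numbered 3 by library size alone, 8 with voom and 3 to 7 with each piece left out, and the TGF-beta response genes 6 with DESeq2, 6 with voom and 3 to 6 with each piece left out. Other ligands numbered 2 with at least 10 counts in every library. Smads and corepressors numbered 2 with DESeq2's size factors, upper-quartile normalization, no filter, at least 10 counts in every library and DESeq2, 7 by the adjusted p alone and 1 to 2 with each piece left out. Latency and activation genes numbered 5 to 7 with each piece left out. With coding length the KO+NM1 shares were 2.68% for Tgfb2, 0.597% for Inhba and 99.4% for Inhbb. In NM1 KO piece 01 the main chain became Inhba, at 51.4% against 48.6% for Inhbb. Except where a setting tests fewer genes, the cause was not tested.

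Same-numbered pieces correlated at 0.0802, 0.102 and -0.0165 in their deviations from the group means, so the numbers did not pair the pieces. With a replicate block the same 5 members were changed (Tgfb3 -1.66, Inhba 2.90, Inhbb -3.74, Bmp4 -2.17 and Mstn 8.01 on the log2 scale) and 3 extracellular antagonists. Low counts limit Gdf15, and 3 against 4 pieces limit every test.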
